A study of Mus musculus with 6 samples.

Results

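The solute carriers measured here are all genes of the deposited splicing array table whose symbol is Slc followed by a family number, together with every alternative RNA processing event listed under them. *Slc17a5* and *Slc15a2* were left out, as were 2 events inside the congenic interval of chromosome 19, 1 each in *Slc22a8* and *Slc3a2*. This left 146 genes of 150 with such a symbol, in 41 families, with 232 events of the 13043 events and 7788 genes of the whole table. Intensities were given for 231 of these events, the exception being 1 cassette event of *Slc37a3*.

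Whole brain total RNA came from a B6.CAST congenic line, in which the CAST allele of *Nxf1* has been carried onto the C57BL/6J (B6) background by serial backcross, and the comparison asks whether the *Nxf1* allele changes the choice between alternative RNA isoforms. Of the 6 mice, 3 were homozygous for *Nxf1* *CAST* and 3 for *Nxf1* *B6*, and they formed 3 same-sex littermate pairs of opposite genotype with 1 array per mouse. The first pair was female and 46 days old, the second was male with the *Nxf1* *B6* mouse at 22 days and the *Nxf1* *CAST* mouse at 23 days, and the third was female and 23 days old. Mice homozygous for *Nxf1* *CAST* also carry the CAST segment of chromosome 19 around *Nxf1*, so the allele and its linked interval cannot be told apart in this stock.

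Solute carriers are membrane proteins that move sugars, amino acids, ions, metals, nucleotides and lipids across the plasma membrane and the membranes of vesicles and organelles, mostly by facilitated diffusion or by coupling to an ion gradient. In brain they clear glutamate, GABA, glycine and monoamines from the extracellular space, fill synaptic vesicles, set neuronal chloride and pH, and bring glucose, lactate and amino acids over the blood-brain barrier. Many are made as several isoforms that differ in their first exon, their last exon or a cassette exon, and such choices are known to alter the ends of the protein or its targeting.

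For each event, the table gave the intensity of the exclusion path and of the inclusion path for what it calls set A and set B, each a value that the authors pooled over several arrays. In a cassette event the exclusion path is the transcript that skips the exon, and in a retained intron event it is the transcript with the intron spliced out. For alternative starts and ends, exclusion and inclusion are only the names given to the paths in the table. The sets are not named by genotype, but the definition of the authors' score and its sign make set B likely *Nxf1* *CAST* and set A likely *Nxf1* *B6*. The isoform change is the log2 of the exclusion to inclusion ratio of set B divided by the ratio of set A, so that a value above 0 means relatively more of the exclusion path in set B. The common shift is the mean log2 change of both paths, and it is above 0 where the event as a whole was brighter in set B. Each set has a single pooled value per path, so there is no spread between mice, no standard error and no test for any value below, and a difference is described as past the threshold where it was over log2 0.5, or 1.414-fold. In whole tissue, fewer cells of a type and less RNA per cell cannot be told apart.

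Of the 231 Slc events with intensities, 21 (9.09%) were past the threshold, beside 7.31% of the 12989 events over all genes. Relatively more exclusion in set B was seen in 14 events, or 6.31% of the Slc events with an exclusion path, beside 4.50% of all such events, and relatively less in 5, or 2.25%, beside 2.71%. The other 2 belong to complex events without an exclusion path, where the path with the largest difference stands for the event and has no sign. The 21 events lay in 21 different genes, 14.4% of the 146, beside 11.7% of all genes. All of these shares lay near those of the whole table, with the share of lower events below it and the others above it, and the median absolute isoform change was 0.16, beside 0.18 for all events. At a threshold of log2 0.3 there were 51 Slc events, which is 22.1% beside 25.97% of all events, and at log2 1 there was none. Adding 50 to every intensity shrinks the change of low values. With it, 7 of the 231 Slc events were past log2 0.5, beside 3.17% of all events. All 7 were among the 21, in *Slc7a6*, *Slc39a8*, *Slc45a4*, *Slc44a2*, *Slc14a1*, *Slc25a40* and *Slc4a7*.

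Seen against neighbouring gene classes, ATP-driven transporters and pumps had 4 of 88 events (4.55%) past the threshold and ion channels 11 of 153 (7.19%). Their median absolute isoform changes were 0.18 and 0.16. The isoform changes of Slc events ran from -0.70 to 0.91. Most were small, with 75 of the 231 under log2 0.1 in either direction, while 9 lay between log2 0.4 and 0.5. The isoform change was above 0 in 143 Slc events and below 0 in 79. That is 64.4% above 0 among those with a sign, beside 55.4% over all events. The share was 57.0% for the ATP-driven transporters and pumps and 59.2% for the ion channels. These shares include starts and ends (42 and 38 of the Slc events), where the sign follows only the names of the paths. They also include complex events and mutually exclusive pairs (25 and 3 of the Slc events), for which no direction is read from the sign either. The median signed isoform change was 0.07 for the Slc events and 0.03 for all events.

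**Figure D1:**
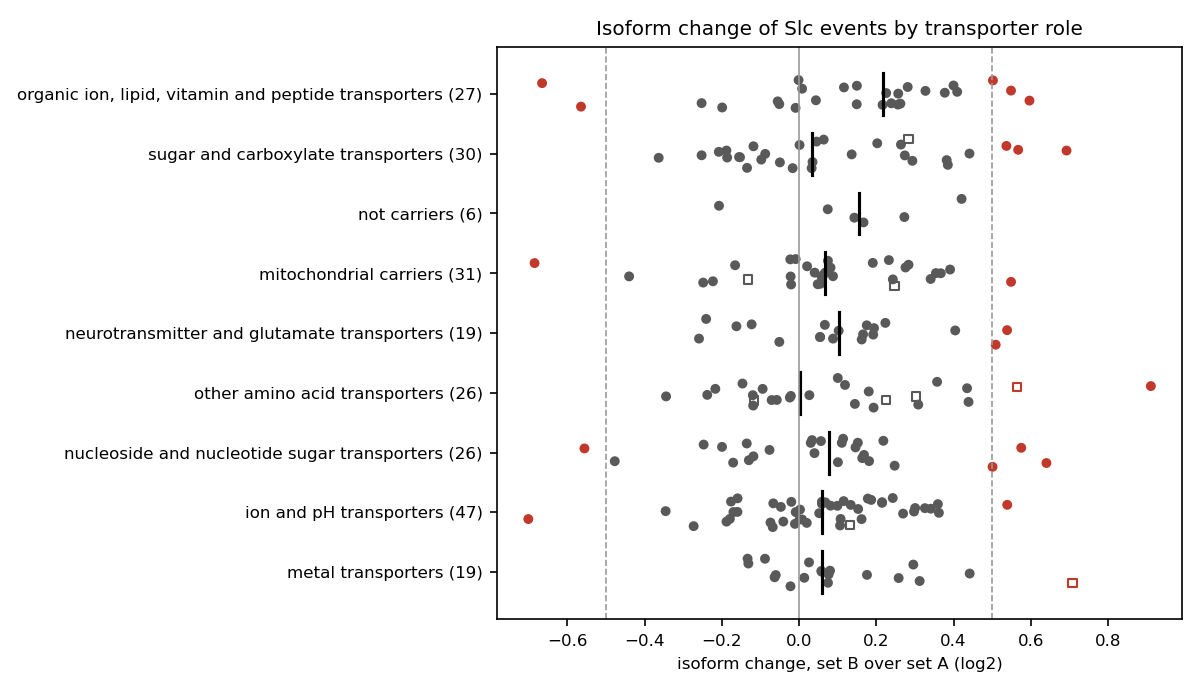
Isoform change (log2, set B over set A; x axis) of the 231 Slc events by transporter role, with the number of events in parentheses. Points are events, open squares are complex events without an exclusion path and have no sign, black bars are medians of the signed events, red marks lie past log2 0.5 (dashed lines), and most events of every role sit between the lines.

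By transporter role, each count is to be read beside the 7.31% of all events past the threshold. Transporters of organic ions, lipids, vitamins and peptides had 5 of 27 events, or 18.5%, with a median absolute isoform change of 0.25. In that group 19 of the 27 events, or 70.4%, were above 0, beside 64.4% of the Slc events and 55.4% of all events. The share above 0 was higher, at 73.7%, in the neurotransmitter and glutamate transporter families, and lower in every other carrier role. Nucleoside and nucleotide sugar transporters had 4 of 26 events past the threshold (15.4%), and transporters of sugars and carboxylates 3 of 30. The families of neurotransmitter and glutamate transporters, which also hold carriers of other substrates, had 2 of 19 (10.5%). Transporters of other amino acids had 2 of 26 (7.69%), mitochondrial carriers 2 of 31 (6.45%), ion and pH transporters 2 of 47 (4.26%) and metal transporters 1 of 19 (5.26%). The plot by role shows the metal transporters closest together, with a median absolute isoform change of 0.08. None of the 6 events of genes that carry the Slc symbol without being carriers themselves (*Slc4a1ap*, *Slc7a6os*, *Slc9a3r1* and *Slc9a3r2*) was past the threshold.

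By event type, cassette exons had 7 of 67 events past the threshold, beside 8.50% of cassettes over all genes. Of the 67, 50 (74.6%) were above 0, the direction of exon skipping in set B, beside 56.7% of all cassettes. Retained introns had 3 of 21 past the threshold, beside 9.86% over all genes, and alternative starts 3 of 42, beside 6.32%. Complex events had 3 of 25, beside 8.33%, alternative ends 2 of 38, beside 2.78%, and complex events without an exclusion path 2 of 9, beside 10.6%. Alternative 5' splice sites had 1 of 12, beside 10.7%. There was none among 12 alternative 3' splice sites, 3 mutually exclusive pairs and 2 twin cassettes, where the shares over all genes were 9.06%, 1.67% and 10.5%, so that about 1 event or fewer would be past the threshold at those shares.

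Among the alternative starts past the threshold was that of *Slc44a2*, for which RefSeq lists a pair of separate start sites. It lists a pair for *Slc39a8* as well, whose complex event is the upstream one of its 2 events. The 250 bases upstream of each start are shown here as the sequence before the start sites that RefSeq lists, and promoter activity was not tested. They are from RefSeq on GRCm38.p6, on the plus strand, 5' to 3', and capitals mark CG dinucleotides:
Slc44a2 first start, chr9:21320469-21320718: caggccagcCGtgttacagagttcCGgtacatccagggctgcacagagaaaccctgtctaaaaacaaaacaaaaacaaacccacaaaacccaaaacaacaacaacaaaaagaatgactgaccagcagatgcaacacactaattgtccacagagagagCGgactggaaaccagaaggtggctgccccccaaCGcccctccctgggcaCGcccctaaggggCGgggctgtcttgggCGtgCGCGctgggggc
Slc44a2 second start, chr9:21337578-21337827: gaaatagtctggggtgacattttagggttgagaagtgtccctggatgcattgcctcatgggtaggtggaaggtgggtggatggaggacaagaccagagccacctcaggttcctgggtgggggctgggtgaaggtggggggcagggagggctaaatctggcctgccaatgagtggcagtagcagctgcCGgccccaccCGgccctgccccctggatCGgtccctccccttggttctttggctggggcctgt
Slc39a8 first start, chr3:135825029-135825278: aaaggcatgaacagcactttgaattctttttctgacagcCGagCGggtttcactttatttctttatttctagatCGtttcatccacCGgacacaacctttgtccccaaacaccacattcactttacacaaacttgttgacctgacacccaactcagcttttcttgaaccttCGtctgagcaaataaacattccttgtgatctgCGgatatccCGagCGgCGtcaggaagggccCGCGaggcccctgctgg
Slc39a8 second start, chr3:135825407-135825656: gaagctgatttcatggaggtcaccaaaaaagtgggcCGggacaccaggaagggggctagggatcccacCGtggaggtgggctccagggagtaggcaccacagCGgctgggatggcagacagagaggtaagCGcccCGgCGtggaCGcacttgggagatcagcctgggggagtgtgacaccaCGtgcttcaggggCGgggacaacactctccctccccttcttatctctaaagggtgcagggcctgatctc

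The start sites of *Slc44a2* are 17109 bases apart on GRCm38.p6, and the event in the table spans 17696 bases. The first upstream window of *Slc44a2* holds 9 CG dinucleotides and the second holds 3, beside a median of 6 over 32851 RefSeq promoter windows of that length. In *Slc39a8* the start sites are 378 bases apart, with 11 and 9 CG dinucleotides upstream, and the event in the table spans 961 bases. The TATA motif TATAAA, searched on both strands, is in none of these 4 windows, and 12.4% of all windows hold it. The table does not say which path uses which start, and its genome build is not stated, so the windows describe the gene and are not assigned to a path.

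In *Slc44a2*, a choline transporter-like protein, the exclusion path of the start event had an intensity of 467 (set A) and 582 (set B), and the inclusion path 330 and 272. One path was higher and the other lower in set B by similar amounts, for an isoform change of 0.60 and a common shift of 0.02. The cassette event of the same gene had an isoform change of 0.22. In *Slc39a8*, an importer of zinc and manganese, the path with the largest difference was 250 (set A) and 327 (set B), and the paths set against it 246 and 197, a difference of 0.71 without a sign. Its alternative end had an isoform change of -0.06, so the difference was limited to 1 of the 2 measured regions of the gene.

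**Figure D2:**
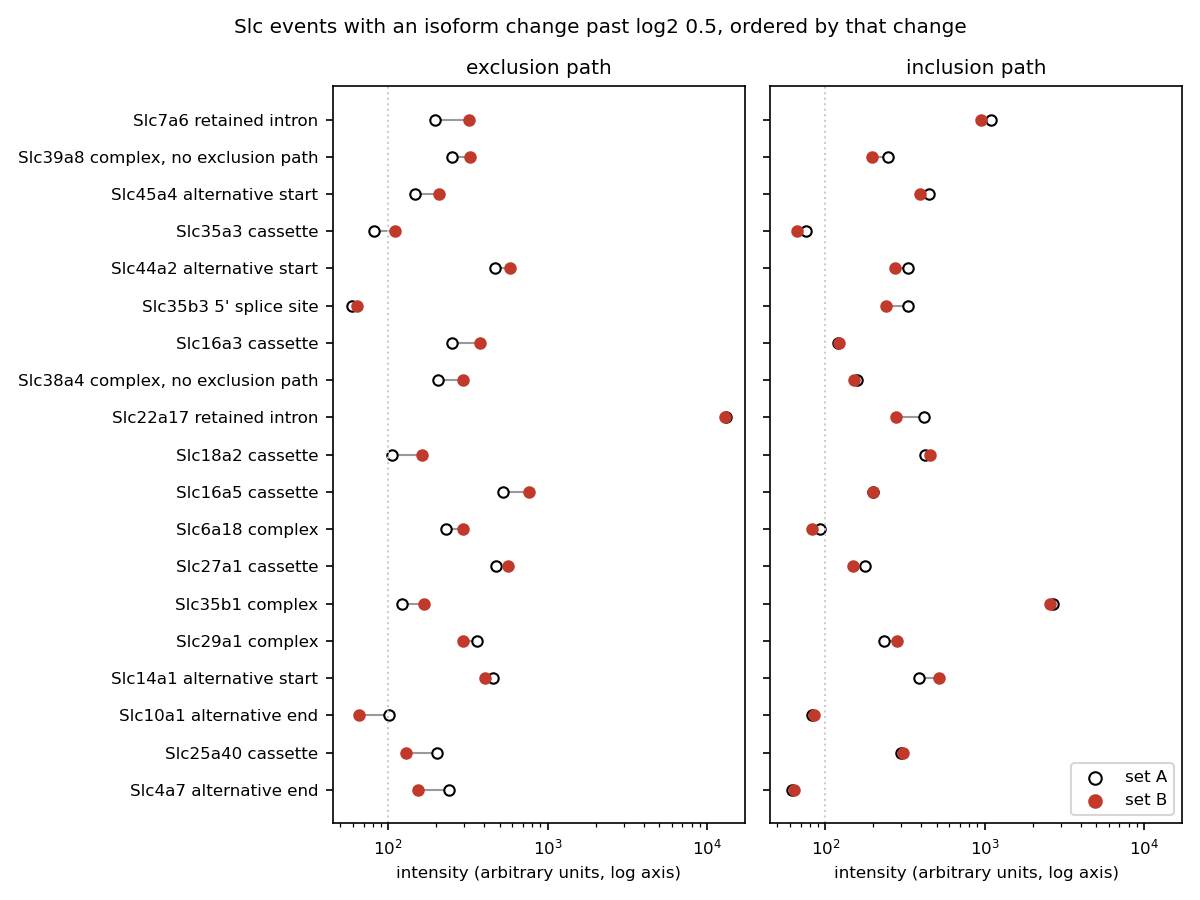
Intensity in set A (open) and set B (red) of the exclusion path (left) and the inclusion path (right) for 19 of the 21 Slc events past log2 0.5, on log axes in arbitrary units, ordered by isoform change with the highest at the top. The dotted line marks an intensity of 100; 5 events have a value below it, and for the 2 complex events without an exclusion path the left panel shows the path with the largest difference.

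The highest isoform change among the solute carriers was in a retained intron of *Slc7a6*, a light chain of the heteromeric exchangers of cationic and neutral amino acids. The table places it at chr8:108703187-108703386 on the plus strand. The spliced path had an intensity of 197 (set A) and 321 (set B), and the intron-retaining path 1087 and 942. The paths moved apart, giving an isoform change of 0.91 or 1.88-fold, which ranked 54 by size among all 12989 events. The change lay mostly in the spliced path, which made up 77.3% of the summed change of both paths.

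Another 2 events of *Slc7a6* cover a single region near position 108716383, and they gave 0.43 for an alternative 5' splice site and -0.24 for a retained intron. Both contain an intensity under 100, which is called dim here, and the alternative splice site went from 127 to 104 on the exclusion path and from 104 to 63 on the inclusion path. Its common shift of -0.51 was the lowest of all Slc events, while that of the first retained intron was 0.25. The events of *Slc7a6* therefore did not move together.

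In *Slc22a17*, an organic cation transporter-like protein also described as a receptor for lipocalin, the intron-retaining path of 1 event was 415 (set A) and 279 (set B). The spliced path of that event was 13185 and 12966, the first of which is the highest intensity of the table. Nearly all of the isoform change of 0.55 thus lay in the intron-retaining path, with 96.0% of the summed change. A second retained intron of *Slc22a17* had an isoform change of -0.01, and a cassette exon 0.24.

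In all 3 retained introns past the threshold the spliced path was relatively higher in set B, as it was in 69 of the 105 over all genes. Over the 21 retained introns of Slc genes the median signed isoform change was 0.17, beside 0.05 over the 1065 retained introns of all genes.

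Cassette exons past the threshold were skipped relatively more in set B in 6 of 7 events, and in 209 of 322 over all genes. In *Slc16a3*, the lactate exporter MCT4, the exclusion path was 253 (set A) and 378 (set B) while the inclusion path stayed at 120 and 121, an isoform change of 0.57. In its relative *Slc16a5* the pattern was the same, with 528 and 766 on the exclusion path and 199 in both sets on the inclusion path, or 0.54. The exon-skipping path made up 98.0% of the summed change of both paths in *Slc16a3* and 100% in *Slc16a5*. The other 2 events of *Slc16a5* had isoform changes of -0.36 and -0.13.

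*Slc27a1*, a fatty acid transport protein, had 477 (set A) and 568 (set B) on the exclusion path and 176 and 148 on the inclusion path, for 0.50. The cassette of *Slc35a3*, the Golgi carrier of UDP-N-acetylglucosamine, gave 0.64 but was dim, with 82 and 111 on the exclusion path and 76 and 66 on the inclusion path.

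The cassette exon of *Slc25a40*, a mitochondrial carrier linked to glutathione import, was the exception. Its exclusion path was 202 (set A) and 129 (set B), while the inclusion path was 298 and 306. The isoform change was -0.69, and an alternative end in the same gene had 0.06. The exon was thus skipped relatively less in set B.

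Among alternative starts, *Slc45a4*, a relative of the sugar transporters, had 147 (set A) and 209 (set B) on the exclusion path and 449 and 395 on the inclusion path, an isoform change of 0.69. *Slc14a1*, the urea transporter of astrocytes and red cells, had -0.56, with 453 and 407 on the exclusion path and 389 and 517 on the inclusion path. A cassette event of *Slc14a1* had an isoform change of -0.06. Of all 42 Slc start events, 28 were above 0 (66.7%), beside 51.3% of alternative starts over all genes. For starts this sign follows only the names of the paths, so it gives no shared direction of start choice.

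Both alternative ends past the threshold had relatively less of the exclusion path in set B, and both were dim. In *Slc4a7*, a sodium bicarbonate cotransporter, the exclusion path was 241 (set A) and 153 (set B) and the inclusion path 62 and 64, giving -0.70. The other 3 events of *Slc4a7* lay between -0.35 and 0.18. In *Slc10a1*, the bile acid transporter of liver, the values were 101 and 66 against 82 and 85, giving -0.67. All 4 values of the latter lay near or under 100.

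The remaining events past the threshold were complex or at splice sites. *Slc29a1*, the equilibrative nucleoside transporter ENT1, had 360 (set A) and 293 (set B) on the exclusion path and 234 and 280 on the inclusion path, for -0.56. *Slc35b1*, the ATP and ADP exchanger of the endoplasmic reticulum, had 122 and 167 against 2661 and 2574, for 0.50. *Slc38a4*, a sodium-coupled amino acid transporter, had 206 and 293 on the path with the largest difference and 157 and 151 on the paths set against it, for 0.56 without a sign.

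The alternative 5' splice site of *Slc35b3*, the Golgi carrier of the sulphate donor PAPS, gave 0.58 with dim values of 59 (set A) and 64 (set B) on the exclusion path and 331 and 241 on the inclusion path. The start of *Slc35c1*, the Golgi GDP-fucose transporter, lay just under the threshold at -0.48. Other events just under it were the start of *Slc25a45* at -0.44, a cassette of *Slc39a4* at 0.44, the start of *Slc2a2* at 0.44 and an end of *Slc38a1* at 0.44. The smallest values past it were those of *Slc35b1* and *Slc27a1*, both at 0.50, so no gap separated the events on either side.

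The paths of the 21 events past the threshold changed in opposite directions in 17, or 81.0%, beside 82.1% of the 929 events past the threshold in all other genes. The larger change lay in the exclusion path, or the path that stands for it, in 17 of 21, or 81.0%, beside 73.5% of those 929. Both shares take in complex events without an exclusion path, where the path with the largest difference was counted in its place. The 17 hold 2 such events, in *Slc39a8* and *Slc38a4*. The larger change lay in the dimmer path in 8 of 21, or 38.1%, beside 63.5% of those 929. Values under 100 were present in 5 of the 21 and in 60 of all 231 Slc events, beside 2699 of 12989 over all genes. The part of low intensity in these isoform changes was not tested.

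**Figure D3:**
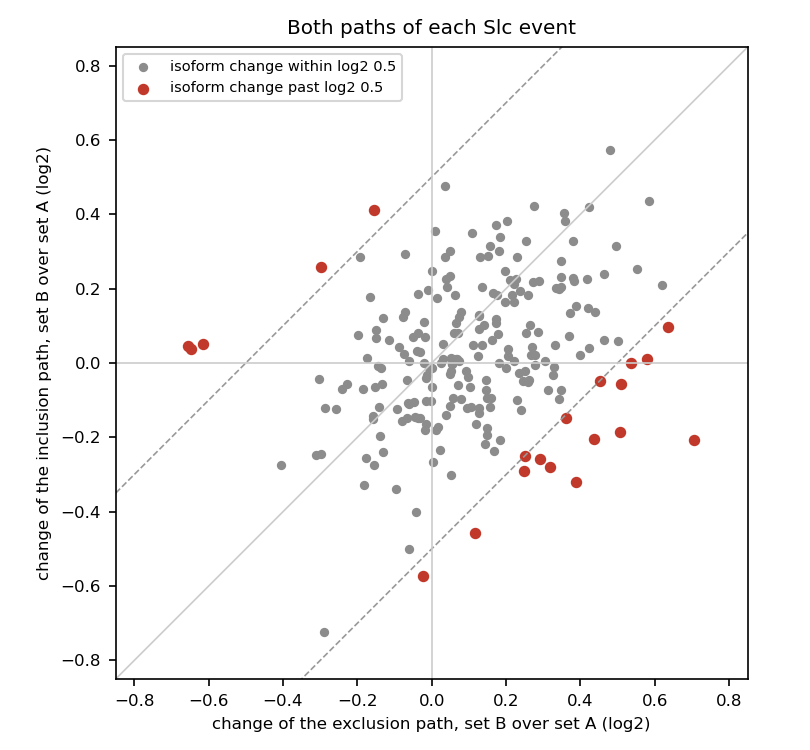
Log2 change from set A to set B of the exclusion path (x axis) and the inclusion path (y axis) for each of the 231 Slc events. For the 9 complex events without an exclusion path, the x axis shows the path with the largest difference. Red points are the 21 events past the dashed lines, which mark an isoform change of log2 0.5; points along the solid diagonal changed by a common shift only, and 96 events lie in the upper right region, where both paths were higher in set B.

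The families of neurotransmitter and glutamate transporters were examined closely, since they include the defining carriers of astrocytes and of synapses. They also hold carriers of other substrates, among them *Slc6a18*, *Slc17a3*, *Slc6a8* and *Slc6a6*. *Slc18a2*, the vesicular monoamine transporter VMAT2, had a cassette with 105 (set A) and 163 (set B) on the exclusion path and 422 and 451 on the inclusion path, an isoform change of 0.54. Its common shift of 0.37 was the highest of this group. *Slc18a2* lies on chromosome 19 but 47.5 Mb from the congenic interval. The related *Slc18a1* had 0.18 with dim values.

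The events of the astrocyte glutamate transporters were all alternative starts or ends, where the sign follows only the names of the paths. *Slc1a3* (GLAST) had 6872 (set A) and 7720 (set B) on the exclusion path of 1 alternative end and 536 and 455 on the inclusion path, or 0.40, and a second alternative end gave 0.22. *Slc1a2* (GLT-1) had 0.19 at its start and 0.17 at its end, where the exclusion path was 9980 and 10330 and the inclusion path 2358 and 2176. All 4 events, from 2 genes, were above 0, beside 64.4% of the Slc events with a sign, and none was past the threshold. Their common shifts lay between -0.08 and -0.01.

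The vesicular glutamate transporter *Slc17a7* (VGLUT1) had 421 (set A) and 475 (set B) on the exclusion path of its start and 4522 and 4872 on the inclusion path, with an isoform change of 0.07. The start of *Slc17a8* (VGLUT3) gave -0.12. Of the sodium- and chloride-coupled carriers, the glycine transporters *Slc6a9* and *Slc6a5* gave 0.09 and -0.05, and the creatine transporter *Slc6a8* gave -0.26 for a retained intron with 861 and 698 on the spliced path and 438 and 425 on the intron-retaining path. *Slc6a17*, *Slc6a6* and *Slc6a12*, which carry neutral amino acids, taurine, and betaine with GABA, gave 0.19, 0.16 and 0.05.

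*Slc6a18*, an amino acid transporter known from kidney, was the only member of the Slc6 family past the threshold. One complex event had 229 (set A) and 294 (set B) on the exclusion path and 92 and 83 on the inclusion path, for 0.51, and another gave 0.05. *Slc17a3*, an organic anion transporter related to the vesicular glutamate carriers, gave 0.10 and -0.24. Of the 19 events in the group, 14 were above 0. Among the 19, the 2 past the threshold were thus in *Slc18a2* and *Slc6a18*, and the *Slc6a18* event was dim.

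**Figure D4:**
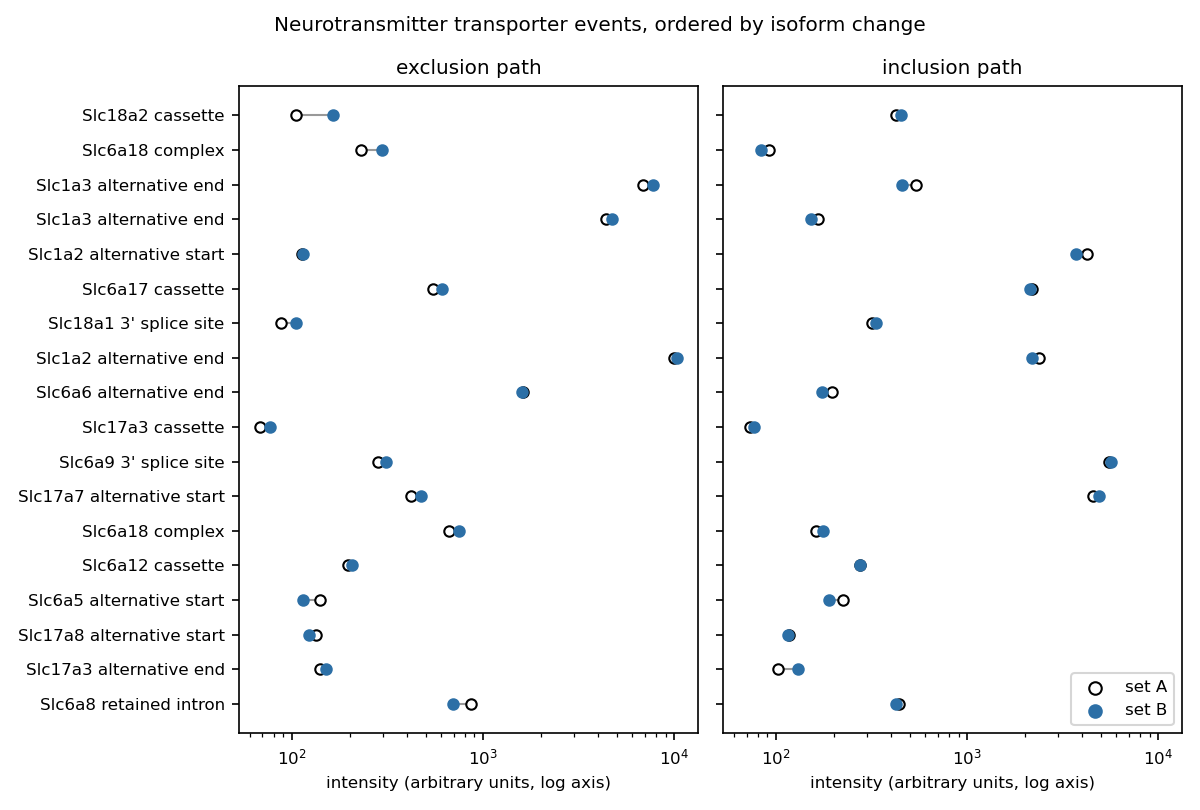
Intensity in set A (open) and set B (blue) of the exclusion path (left) and the inclusion path (right) for 18 of the 19 events of the neurotransmitter and glutamate transporter families, on log axes in arbitrary units, ordered by isoform change with the highest at the top. In most events the open and filled points nearly coincide; the widest gap is in the exclusion path of *Slc18a2*, from 105 to 163.

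Of the other carriers known for their part in brain energy and ion balance, *Slc2a1*, the glucose transporter of the blood-brain barrier, had 3334 (set A) and 3789 (set B) on the exclusion path of a cassette and 273 and 345 on the inclusion path. Both paths were higher in set B, so that the isoform change was -0.15 and the common shift 0.26. *Slc4a4*, the electrogenic sodium bicarbonate cotransporter of astrocytes, had 0.36 at its start and 0.24 at a cassette, with 4381 and 4857 on the exclusion path of the latter and 2355 and 2207 on the inclusion path. The sodium-calcium exchangers *Slc8a1* and *Slc8a3* had 0.34 and 0.36. *Slc2a3*, *Slc16a1*, *Slc8a2*, *Slc12a2*, *Slc12a5*, *Slc9a2*, *Slc20a2* and *Slc25a21* had no event among the members.

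Several genes had more than 1 event, with 40 genes having 2, 15 having 3, 4 having 4, and *Slc9a8*, a sodium-proton exchanger of endosomes, having 5. The events of *Slc9a8* lay between -0.02 and 0.33. All 4 events of *Slc10a7* were above 0, from 0.04 to 0.40, and all 4 of *Slc4a9* were below 0, from -0.16 to -0.01. Of all Slc events with a sign, 64.4% were above 0. In each of these genes 2 of the 4 events were dim. The events of *Slc4a9* are of different types, so their shared sign gives no shared direction. The widest spans were those of *Slc7a6*, from -0.24 to 0.91, *Slc16a5*, from -0.36 to 0.54, and *Slc4a7*, from -0.70 to 0.18. Each of these wide spans holds 1 event past the threshold, and no Slc gene had more than 1.

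**Figure D5:**
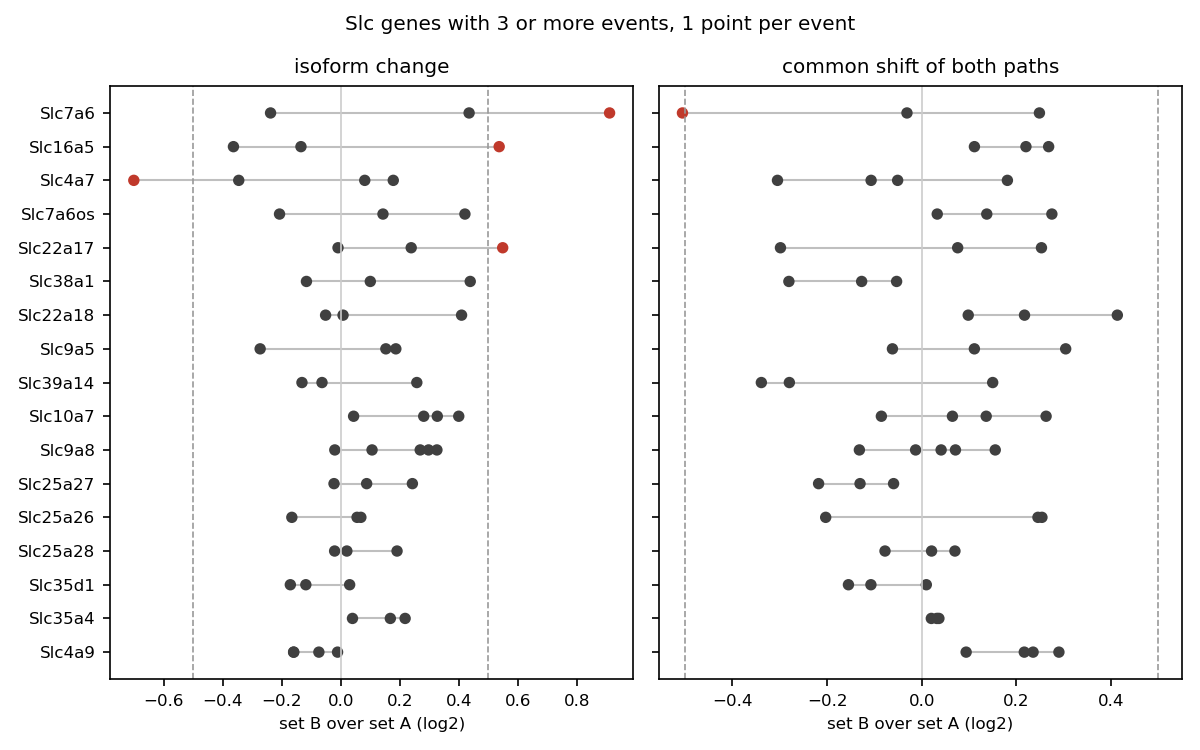
Isoform change (left) and common shift (right), log2 of set B over set A, for each event of 17 Slc genes with 3 or more events. Each point is an event, grey lines join the events of a gene, red points lie past log2 0.5 (dashed lines), and within a gene such as *Slc7a6*, *Slc16a5* or *Slc4a7* the events lie on both sides of 0.

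The common shift asks whether an event as a whole was brighter in 1 set. It was past the threshold in 3 Slc events, or 1.30%, beside 0.793% of all events. In *Slc7a7*, a light chain related to *Slc7a6*, an alternative 5' splice site had 160 (set A) and 223 (set B) on the exclusion path and 293 and 436 on the inclusion path, a common shift of 0.53. In *Slc19a2*, a thiamine transporter, the values were 132 and 198 against 298 and 403, a common shift of 0.51. The alternative 5' splice site of *Slc7a6* was the only one lower in set B. With 50 added to every intensity, 0 of the 231 were past the threshold, beside 0.231% of all events.

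Smaller shifts leaned one way. The common shift was above 0 in 150 of the 231 Slc events, or 64.9%, beside 51.3% of all events, and its median was 0.07 for the Slc events and 0.01 for all. Both paths were higher in set B in 41.6% of Slc events, beside 28.7% of all events. Sugar and carboxylate transporters had 26 of 30 events above 0 with a median of 0.14, and the organic ion, lipid, vitamin and peptide group 21 of 27 with a median of 0.11. Metal transporters had 9 of 19 and mitochondrial carriers 16 of 31. ATP-driven transporters and pumps had 37 of 88, and ion channels 71 of 153.

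Low intensity moved with this lean. In the 60 Slc events with a value under 100 the median common shift was 0.11, and in the other 171 it was 0.04, with 106 of the 171 above 0. Over all genes the corresponding medians were 0.03 and 0.00, with 5145 of the 10290 events without a value under 100 above 0. The lean of the Slc events was thus smaller but still present without the dim events, and the part of low intensity in it was not tested.

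By gene, taking the median over its events, the common shift was highest in *Slc19a2* at 0.51, *Slc36a3* at 0.40, *Slc26a3* at 0.40, *Slc18a2* at 0.37 and *Slc22a12* at 0.35. Each of these rests on a single event, and those of *Slc26a3* and *Slc22a12* were dim. The common shift was lowest in *Slc10a1* at -0.28, *Slc39a14* at -0.28, *Slc6a5* at -0.27, *Slc25a40* at -0.24 and *Slc8a3* at -0.22. Of these, *Slc10a1*, *Slc6a5* and *Slc8a3* also rest on a single event each, and that of *Slc10a1* was dim. The 3 events of *Slc39a14*, a zinc and iron importer, lay between -0.34 and 0.15. The SD of the common shift among events of a gene was 0.16 over the 60 Slc genes with more than 1 event, and the SD between the medians of the 146 genes was 0.15. Over all genes these SDs were 0.15 and 0.16.

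A few members lie near the congenic interval. *Slc22a12*, the urate transporter, lies 0.513 Mb from it, with 87 (set A) and 120 (set B) on the exclusion path and 228 and 269 on the inclusion path. *Slc25a45*, a mitochondrial carrier, lies 1.17 Mb from it, and its 2 events had common shifts of 0.26 and 0.27. All 3 events were brighter in set B. Whether the CAST segment of these mice reaches them was not tested.

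Marker genes of brain cells were examined for the common shift in the same way. Their intensities cannot be set against those of other probe sets, so the tissue label was not checked by level. The neuronal list had 1 of 10 events with a common shift above 0, a median of -0.11 and a range from -0.33 to 0.29, with 7 of its 10 genes measured. Astrocyte markers had a median of 0.01 (7 of 10 genes), oligodendrocyte and myelin markers -0.03 (5 of 12), microglial markers 0.06 (4 of 10) and immature neuron markers 0.03 (4 of 10). Endothelial and pericyte markers had -0.12 (2 of 10), choroid plexus markers -0.13 (3 of 10) and blood 0.11 from a single gene of 6. The part of cell composition in the common shift of the Slc events was not tested.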

How the data were processed

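Whole brain total RNA of 6 mice was hybridized to Affymetrix MJAY splicing arrays, 1 per mouse, after labelling with the WT Terminal Labeling Kit. Affymetrix Power Tools is named in the submitters' processing notes, without a version. The authors deposited a single table with 4 intensities per path of an event, exclusion and inclusion in sets A and B, as whole numbers on a linear scale, pooled before deposit over the arrays they stand for. Normalization, background correction and genome build are not given in the sources used here, and positions are those of the table. The table also holds the authors' separation scores, log2 values, and their q-values, which are results of their own comparison and were not used.

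Rows were joined into events by event name, type and chromosome, since some names stand for events at more than 1 place. An event took the values of its exclusion path, or, without one, of the path with the largest absolute change, a choice that favours large values. No value per array was used, so depth and precision per mouse are unknown, the 6 arrays limit the precision, and no replicate spread, interval or test could be had. A threshold of log2 0.5 was set, and intensities under 100 were called dim. The named genes are all Slc events past the threshold, the 5 genes highest and the 5 genes lowest in common shift, all events of families 1, 6, 17, 18 and 32 and of chosen brain carriers, and genes with 3 or more events. Some genes that this rule takes in are not reported here. Other events were picked after their values were seen.

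The members, gene lists and role groups were chosen with earlier results of these data known, and the 4 genes that are not carriers were set apart after the files were seen. Of the 146 symbols, 145 are current RefSeq symbols and 1 (*Slc24a6*) matched as a synonym, 111 have a RefSeq promoter entry, and 2 events lie on another chromosome than the RefSeq gene of that name. The joining of rows into events was tested on simulated data with changes of log2 1, larger than that of any Slc event. Events without an exclusion path and changes near the threshold were not part of that test. Alternatives were thresholds of log2 0.3 and 1, an offset of 50, dim events left out, centring on the median and the path with the largest change. Python 3.11.15, numpy 2.4.6, pandas 2.3.3 and matplotlib 3.10.9 were used.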

Additional observations from a re-analysis of the deposited data

How the results depend on the processing

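No paired analysis was possible because the table gives pooled values and none for a single array or pair, and for the same reason no mouse could be left out in turn. With a threshold of log2 0.3 there were 51 Slc events in 47 genes past it, beside 25.97% of all events, and with log2 1 there were 0 events in 0 genes, beside 0.223%. With 50 added to every intensity, 7 of the 231 Slc events, in 7 genes, were past log2 0.5, beside 3.17% of all events. All 7 were among the 21. Without dim events, 16 of 171 were past the threshold, in 16 genes, beside 6.48%. Centring on the median of all events gave 19, beside 7.10% of all events. Of these, 18 were among the 21, while *Slc27a1*, *Slc35b1* and *Slc6a18* dropped out and *Slc35c1* came in at -0.51. Taking the path with the largest change gave 21 as well, which is no separate check. Both paths of an event have the same absolute isoform change, and events without an exclusion path already took the largest. The count of common shifts went from 3, beside 0.793% of all events, to 20 at log2 0.3, beside 8.72%. It went to 0 with 50 added, beside 0.231%, and to 2 without dim events, beside 0.661%. After centring it stayed at 3, beside 0.778%. The median absolute isoform change of 0.16 went to 0.13 with 50 added, 0.16 without dim events and 0.16 after centring.

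The limit of these values is the pooling, since no difference was set against the spread between mice. Array signal over background was not used. With 50 added, the 21 Slc events past the threshold became 7, and the share over all events went from 7.31% to 3.17%.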
